A study of Mus musculus with 9 samples.

Results

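The genes described here encode the hepatic methionine cycle, the transsulfuration branch that drains it and the oxidation of choline that feeds it. They were taken by name from the deposited table: Mat1a, Mat2a, Gnmt, Ahcy, Bhmt, Bhmt2, Mtr, Cbs, Cth and Chdh, 10 of 54532 genes, and all 10 were among the 13737 genes with enough signal to be tested. Messenger RNA was measured in livers of wild-type male C57BL/6J mice in 3 groups of 3 libraries. The chow group received normal chow and vehicle. The vehicle group received vehicle on CDAA-HFD, a high-fat feed that lacks choline and supplies defined L-amino acids in place of protein, used to model steatohepatitis. The 326E group received the same diet with 30 mg/kg of 326E, a compound that the series title describes as targeting ATP citrate lyase and PPARα, for 6 weeks. The labels give neither the age of the mice nor the length of the diet, nor whether each library comes from its own animal, so p-values measure the spread between these libraries, which may be technical. All library titles begin with MCD, an abbreviation often used for a diet deficient in methionine and choline, whereas the protocol names CDAA-HFD, which is followed here.

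In the methionine cycle, methionine adenosyltransferases turn methionine into S-adenosylmethionine, the methyl donor of the cell, and methyltransferases leave S-adenosylhomocysteine, which is cleaved to homocysteine. Homocysteine is methylated back to methionine with a methyl group from betaine or from folate, or it leaves the cycle towards cysteine by transsulfuration. Choline is the source of betaine, and liver is the main site of this traffic in mammals, so a diet without choline withholds a methyl donor as well as a precursor of phosphatidylcholine.

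Values are FPKM (fragments per kilobase of gene length, scaled for library size), which allow levels to be compared between genes, and libraries are listed in the order of replicates 1, 2 and 3. Changes are given on the log2(FPKM+1) scale, which understates those of low genes, followed by ± and the standard error from limma. A gene was called at a Benjamini-Hochberg adjusted p under 0.05. Each library had between 13275888 and 17058316 assigned reads, and the genes described here had 172 (Mtr) to 71720 (Mat1a) reads per library. Hepatocyte markers were abundant throughout, with Alb at a mean of 31766 FPKM in chow, 26116 FPKM in vehicle and 20163 FPKM in 326E livers. The pancreatic genes Cela1 and Cpa1 stood out in chow replicate 3 and, less so, in 326E replicate 1, where the summed level of 7 pancreas, fat and muscle genes was 1254 and 116 FPKM against 2.89 to 14.7 FPKM in the other libraries.

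The opposite ends of the response were Gnmt and Cbs, which fell most on the diet, and Mat2a, which rose. Mtr had the smallest difference on the diet with the deposited scaling, though not under scaling by assigned reads or quantile normalization. The bases upstream of these genes are shown to let their promoters be compared, from the RefSeq windows of 300 bases on GRCm38.p6, which were found for 8 of the 10 genes. Only bases before the annotated exons of the gene are printed, 5′ to 3′ along the strand of the gene, and all of these genes lie on the minus strand. Capitals mark matches on either strand to the E-box, whose letters are CACGTG, to the GC box, which reads GGGCGG, to the CCAAT box, or to the TATA box, searched here as TATAAA.
Gnmt, chr17:46729169-46729415: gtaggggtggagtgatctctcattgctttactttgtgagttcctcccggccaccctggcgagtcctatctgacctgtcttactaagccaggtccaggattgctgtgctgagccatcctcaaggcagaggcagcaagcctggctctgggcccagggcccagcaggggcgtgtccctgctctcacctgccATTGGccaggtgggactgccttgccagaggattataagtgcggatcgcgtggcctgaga
Cbs, chr17:31637239-31637455: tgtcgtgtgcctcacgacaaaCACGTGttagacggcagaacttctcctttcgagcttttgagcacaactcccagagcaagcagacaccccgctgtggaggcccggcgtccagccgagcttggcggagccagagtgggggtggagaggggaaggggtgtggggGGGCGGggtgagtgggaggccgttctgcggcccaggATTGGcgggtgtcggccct
Mat2a, chr6:72439559-72439806: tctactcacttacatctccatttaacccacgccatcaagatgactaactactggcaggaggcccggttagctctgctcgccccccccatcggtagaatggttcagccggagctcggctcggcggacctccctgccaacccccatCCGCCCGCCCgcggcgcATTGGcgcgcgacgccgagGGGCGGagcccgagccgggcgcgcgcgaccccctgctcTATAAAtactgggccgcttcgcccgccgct
Mtr, chr13:12258114-12258363: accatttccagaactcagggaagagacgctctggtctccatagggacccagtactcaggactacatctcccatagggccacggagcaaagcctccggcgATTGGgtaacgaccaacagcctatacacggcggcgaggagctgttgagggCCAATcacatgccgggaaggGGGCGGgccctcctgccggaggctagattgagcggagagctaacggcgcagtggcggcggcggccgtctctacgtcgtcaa

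The Mat2a window held 3 GC boxes, the first pair overlapping by 2 bases, with a TATAAA match starting 32 bases before the start site and 34 CpG dinucleotides, against a median of 7 in all 32851 windows. Gnmt carried a CCAAT match and no GC box, with 11 CpG. CACGTG was matched in 1 window of the 8 genes, that of Cbs, and in 7.15% of all windows. GC boxes were found in 6 of the 8 genes and in 35.7% of all windows, CCAAT in 6 of the 8 genes and in 37.4%, and TATAAA in Mat2a and in 13.6%. A gene counted if any of its windows matched, whereas the shares are of single windows. Chdh had several windows, and its GC boxes lay in 1 of them. No match was found in these windows for the nuclear receptor repeat DR1 (in 0.0396% of all windows), the HNF1 palindrome (in 0.00913%) or the composite element of ATF4 and C/EBP, TGATGNAAT (in 0.965%). The Cbs window held a further GC box and CCAAT in exon bases that are not printed. All motifs were searched on both strands in the whole 300 bases, and a match describes the letters, not binding.

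On the diet, 7 of the 10 genes fell, 1 rose and 2 did not pass, where 20.8% of all tested genes were called lower, 20.8% higher and 41.6% in either direction. The median log2 fold change of the 10 genes was -0.71, against -0.04 for all tested genes. Gnmt, Cbs and Bhmt fell most, and Mat2a was the gene that rose. With 326E, 2 of the 10 genes rose (Cbs and Chdh), 1 fell (Cth) and 7 did not pass, where 4.96% of tested genes were called higher, 6.5% lower and 11.5% in either direction. The median of the 10 genes was -0.04 for 326E against vehicle, and -0.02 for all tested genes. Against chow, 326E livers had 6 of the 10 genes lower and 2 higher (Mat2a and Chdh), where 12.5% of tested genes were called lower, 14.4% higher and 26.8% in either direction. Groups did not overlap for 8 of the 10 genes in vehicle against chow (51.9% of tested genes), 4 in 326E against vehicle (33%) and 8 in 326E against chow (45.1%). The 3 comparisons share libraries and are not independent of each other.

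**Figure D1:**
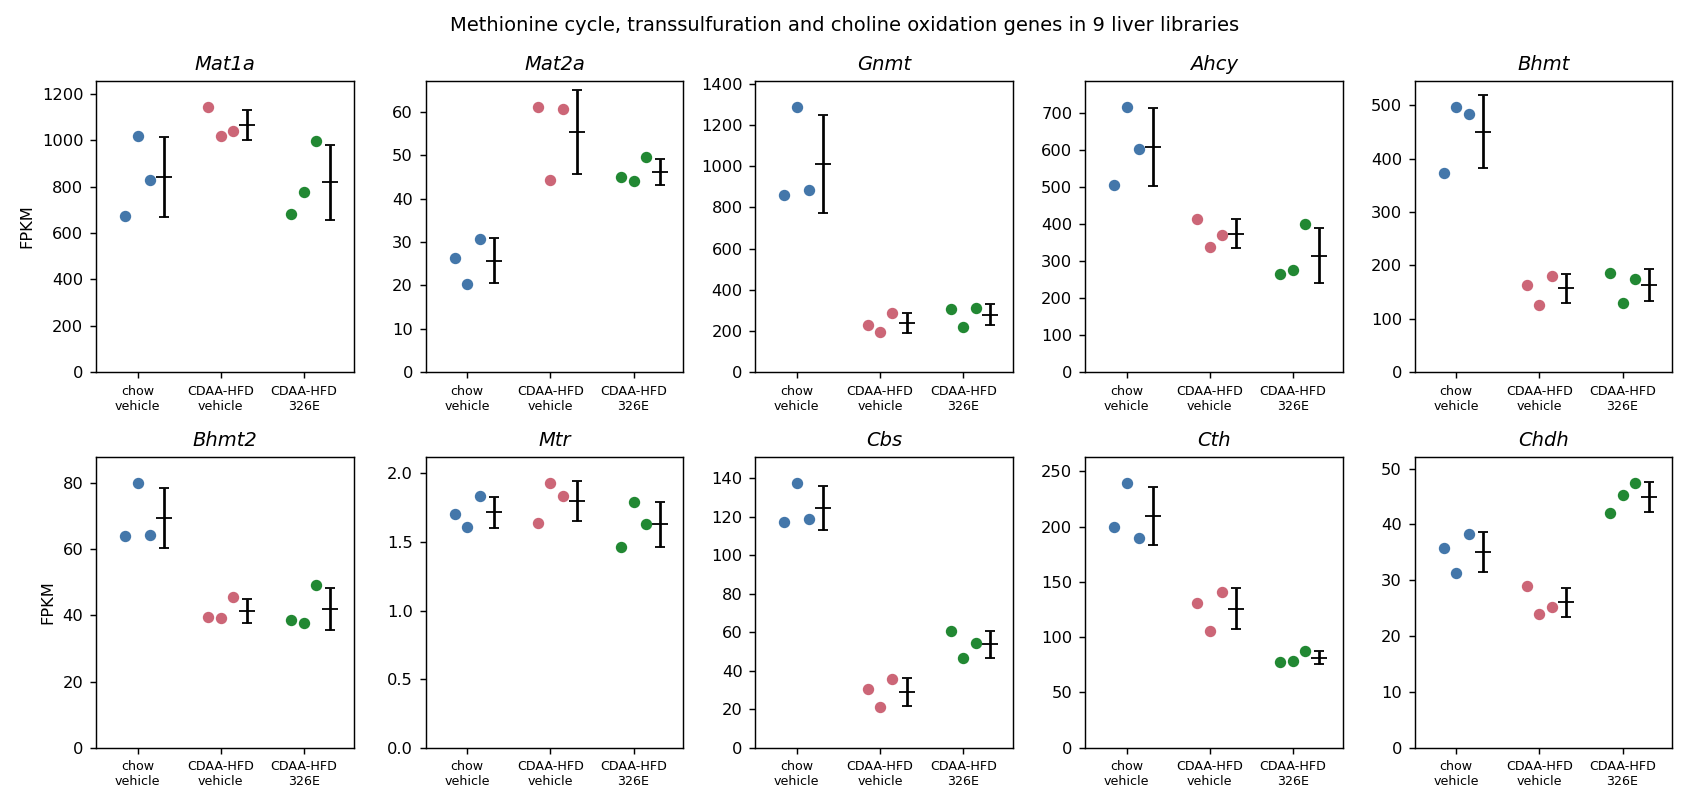
FPKM of the 10 genes in each library (points, replicates 1 to 3 from left to right in each group), with the group mean and SD (black). Gnmt, Bhmt and Cbs stand far lower in both CDAA-HFD groups than in chow, Mat2a higher, and Chdh is highest in the 326E libraries.

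Synthesis of S-adenosylmethionine is shared by Mat1a, whose product forms the enzyme of adult hepatocytes, and Mat2a, whose product serves other tissues and growing or dedifferentiating hepatocytes. Mat1a (ENSMUSG00000037798, chromosome 14, 41105035 to 41124412, on mm10) stood at 674, 1020 and 826 FPKM in chow, 1141, 1017 and 1038 FPKM in vehicle and 680, 777 and 996 FPKM in 326E livers. The chow and vehicle ranges touched, chow replicate 2 lying between vehicle replicates 2 and 3, and every 326E library lay below every vehicle library. Neither difference passed, with 0.36 ± 0.20 for vehicle against chow (95% interval -0.08 to 0.80, adjusted p = 0.172) and -0.40 ± 0.20 for 326E against vehicle (95% interval -0.84 to 0.05, adjusted p = 0.223). The Mat1a calls depended on the scaling between libraries. Vehicle against chow passed under scaling by assigned reads (0.76, adjusted p = 0.00625) and under quantile normalization (1.36, adjusted p = 0.000129), and 326E against vehicle passed with quantile normalization (-0.73, adjusted p = 0.0119).

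Mat2a (ENSMUSG00000053907, chromosome 6, 72432799 to 72439558) was at 26.2, 20.3 and 30.6 FPKM in chow, 61.0, 44.2 and 60.7 FPKM in vehicle and 44.98, 44.0 and 49.6 FPKM in 326E livers. All CDAA-HFD libraries lay above all chow libraries, and vehicle replicate 2 stood within the 326E range. The gene rose by 1.08 ± 0.17 on the diet, 2.15-fold by the ratio of means (adjusted p = 0.00107), and was still 0.84 ± 0.17 above chow with 326E (adjusted p = 0.00717). The 326E difference from vehicle was -0.24 ± 0.17 (95% interval -0.63 to 0.14, adjusted p = 0.389), and 0.06 with vehicle replicates 1 and 3 left out. Of the Mat2a exon bases, 11.3% lie under Particl, a transcript of the opposite strand at 0.482 to 0.591 FPKM by group mean, and the strand setting of the counting is not given in the sources used here. Because this is bulk tissue, fewer cells of a type and less RNA per cell cannot be told apart. Of 8 macrophage markers 7 rose on the diet, beside 20.8% of all tested genes higher. With 326E against vehicle 5 of the 8 fell, beside 6.5% of all tested genes lower, while Mat2a was not called. Their summed level was 152 to 166 FPKM in chow, 991 to 1529 FPKM in vehicle and 522 to 940 FPKM in 326E livers. Within the vehicle group, replicates 1, 2 and 3 had marker sums of 991, 1512 and 1529 FPKM, beside Mat2a at 61.0, 44.2 and 60.7 FPKM. The part of macrophages in the Mat2a values was not tested. The subunit that regulates the MAT2A enzyme, Mat2b, fell by 0.33 ± 0.09 on the diet (adjusted p = 0.018), a call lost on leaving out chow replicate 1 or 3 (adjusted p = 0.0615 or 0.0543), with vehicle replicates 1 and 3 left out (adjusted p = 0.166) and under scaling by assigned reads, where its value was 0.02.

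Gnmt encodes the glycine N-methyltransferase that disposes of excess S-adenosylmethionine in liver, and its transcript fell on the diet. Gnmt (ENSMUSG00000002769, chromosome 17, 46725664 to 46729168) read 861, 1286 and 883 FPKM in chow, 228, 193 and 288 FPKM in vehicle and 306, 221 and 311 FPKM in 326E livers. Every CDAA-HFD library lay far below the chow range. The fall on the diet was 2.08 ± 0.22 on the log2 scale, or 4.27-fold by the ratio of means (adjusted p = 0.000128), and 2.19% of tested genes had a larger absolute change. With 326E the value moved by 0.24 ± 0.22 from vehicle (95% interval -0.26 to 0.74, adjusted p = 0.518), with overlapping groups, and remained -1.84 ± 0.22 from chow (adjusted p = 0.000601). Gnmt went from the first of the 10 genes by mean level in chow to the third in both CDAA-HFD groups.

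Ahcy, which splits S-adenosylhomocysteine, the inhibitory product of methyl transfer from S-adenosylmethionine, followed with a smaller fall. Its values (ENSMUSG00000027597, chromosome 2, 155059310 to 155074497) were 506, 714 and 603 FPKM in chow, 414, 337 and 369 FPKM in vehicle and 266, 276 and 399 FPKM in 326E livers, with chow above both other groups and 326E replicate 3 inside the vehicle range. It fell by 0.69 ± 0.19 on the diet (adjusted p = 0.019) and stood at -0.96 ± 0.19 against chow with 326E (adjusted p = 0.00691, and -0.34 with adjusted p = 0.189 under quantile normalization), while 326E against vehicle gave -0.27 ± 0.19 (adjusted p = 0.398). The diet call did not survive scaling by assigned reads (-0.29, adjusted p = 0.175), quantile normalization (-0.01, adjusted p = 0.983) or fits without chow replicate 2 (-0.57, adjusted p = 0.0583), vehicle replicate 2 (-0.62, adjusted p = 0.0602) or vehicle replicates 1 and 3 together (-0.83, adjusted p = 0.0771). Of all stretches of 50 bases in Ahcy transcripts, 68.7% also occur in transcripts of other genes, chiefly the near-copies Gm4737 and Gm9826, so how reads were divided among them is uncertain.

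Remethylation with betaine is the work of Bhmt, one of the most abundant liver enzymes, and Bhmt2 is its neighbour on chromosome 13, whose product uses S-methylmethionine as methyl donor. Bhmt (ENSMUSG00000074768, 93616675 to 93637961) was measured at 373, 496 and 484 FPKM in chow, 163, 126 and 181 FPKM in vehicle and 187, 129 and 174 FPKM in 326E livers. Vehicle and 326E ranges were nearly the same, and both lay wholly below chow. The gene fell by 1.52 ± 0.19 on the diet, 2.88-fold by the ratio of means (adjusted p = 0.000344), and 326E against vehicle gave 0.06 ± 0.19 (95% interval -0.38 to 0.50, adjusted p = 0.879), a value whose sign turned in 3 of the 19 alternatives. Some of the 19, such as leaving out a chow library, cannot change this value. In Bhmt, 26.1% of 50-base stretches are shared with other transcripts, mainly Gm5096 and the pseudogene Bhmt-ps1, which makes its level uncertain by the reads they divide.

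Bhmt2 (ENSMUSG00000042118, 93655720 to 93674302) had 63.8, 79.9 and 64.3 FPKM in chow, 39.4, 39.1 and 45.5 FPKM in vehicle and 38.6, 37.6 and 49.2 FPKM in 326E livers. Its chow libraries were above all others and the CDAA-HFD groups overlapped. It fell by 0.73 ± 0.14 on the diet (adjusted p = 0.00288) and the 326E difference from vehicle was 0.01 ± 0.14 (95% interval -0.30 to 0.32, adjusted p = 0.969), with the sign turning in 5 of the 19 alternatives. As for Bhmt, some of the 19 cannot change this difference. The Bhmt2 promoter window overlaps an exon of Dmgdh, which is read in the other direction and encodes dimethylglycine dehydrogenase, the enzyme that takes up the product left when betaine gives its methyl group. Dmgdh fell by 0.75 ± 0.16 on the diet (adjusted p = 0.00547) and gave 0.04 ± 0.16 for 326E against vehicle (adjusted p = 0.893).

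Mtr, the cobalamin-dependent methionine synthase that remethylates homocysteine with folate, was the least abundant of the 10 genes in every group. Its FPKM (ENSMUSG00000021311, chromosome 13, 12182712 to 12258113) were 1.70, 1.61 and 1.84 in chow, 1.64, 1.93 and 1.83 in vehicle and 1.46, 1.79 and 1.63 in 326E livers, and the 3 groups overlapped. The differences were 0.04 ± 0.09 for vehicle against chow (95% interval -0.16 to 0.25, adjusted p = 0.736) and -0.09 ± 0.09 for 326E against vehicle (95% interval -0.30 to 0.11, adjusted p = 0.553). Under scaling by assigned reads, vehicle against chow was 0.29 and passed (adjusted p = 0.0473), and with quantile normalization it was -0.12.

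Cbs opens transsulfuration by joining homocysteine to serine. Cbs (ENSMUSG00000024039, chromosome 17, 31612623 to 31637199) read 117, 137 and 119 FPKM in chow, 30.6, 21.3 and 35.6 FPKM in vehicle and 60.5, 46.4 and 54.3 FPKM in 326E livers. The 3 groups did not overlap, with 326E between vehicle and chow. The gene fell by 2.08 ± 0.18 on the diet, 4.27-fold by the ratio of means (adjusted p = 4.78e-05). It rose by 0.88 ± 0.18 with 326E, 1.84-fold (adjusted p = 0.0183), and was still -1.20 ± 0.18 from chow (adjusted p = 0.00187). The rise with 326E missed the threshold without 326E replicate 1 (0.79, adjusted p = 0.0569) or replicate 3 (0.87, adjusted p = 0.0588), and was 1.29 (adjusted p = 0.0315) with vehicle replicates 1 and 3 left out.

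Cth completes the branch by cleaving cystathionine to cysteine, and with 326E it fell where Cbs rose. Its values (ENSMUSG00000028179, chromosome 3, 157894248 to 157925077) were 200, 239 and 190 FPKM in chow, 131, 105 and 141 FPKM in vehicle and 77.2, 78.9 and 87.9 FPKM in 326E livers, stepping down from group to group with no overlap. Cth fell by 0.74 ± 0.14 on the diet (adjusted p = 0.00299) and by a further 0.61 ± 0.14 with 326E (adjusted p = 0.0257), and was -1.35 ± 0.14 from chow (adjusted p = 0.000305). The fall with 326E was lost in 8 of the 19 alternatives, among them the fit without vehicle replicate 1 or 3 (-0.58 and -0.53, adjusted p = 0.0699 and 0.0793), without 326E replicates 1, 2 and 3 in turn (adjusted p = 0.0737, 0.0859 and 0.0527) and with vehicle replicates 1 and 3 left out (-0.37, adjusted p = 0.332). Vehicle replicates 1 and 3 had higher Cth than replicate 2. Quantile normalization ended the diet call (-0.26, adjusted p = 0.084).

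Chdh, the mitochondrial choline dehydrogenase that begins the conversion of choline to betaine, was the gene of the 10 whose 326E libraries exceeded both other groups. Chdh (ENSMUSG00000015970, chromosome 14, 30009023 to 30040527) was at 35.7, 31.3 and 38.3 FPKM in chow, 28.9, 23.9 and 25.3 FPKM in vehicle and 42.0, 45.3 and 47.4 FPKM in 326E livers. The 3 groups did not overlap. With 326E the gene rose by 0.77 ± 0.11, 1.72-fold by the ratio of means (adjusted p = 0.00496), and this call held in all 19 alternatives (0.69 to 0.88, adjusted p = 0.00309 to 0.0433). On the diet it fell by 0.42 ± 0.11 (adjusted p = 0.0151), and 326E livers stood 0.35 ± 0.11 above chow (adjusted p = 0.0459). Both of these were less firm: the diet call did not survive scaling by assigned reads (-0.03, adjusted p = 0.838), quantile normalization (-0.24, adjusted p = 0.107) or fits without chow replicate 1 (-0.40, adjusted p = 0.0506), without chow replicate 3 (-0.35, adjusted p = 0.0558) and without vehicle replicate 2 (-0.36, adjusted p = 0.0533), and the 326E difference from chow was lost in 10 of the 19. Among these were the fits without chow replicate 1 or 2 (0.36 and 0.27, adjusted p = 0.0981 and 0.126), vehicle replicate 3 (0.35, adjusted p = 0.0616) and, in turn, 326E replicates 1, 2 and 3 (0.39, 0.34 and 0.31, adjusted p = 0.0631, 0.12 and 0.114). Of its exon bases, 9.47% lie under Cacna1d on the opposite strand, at 0.301 to 0.438 FPKM by group mean.

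**Figure D2:**
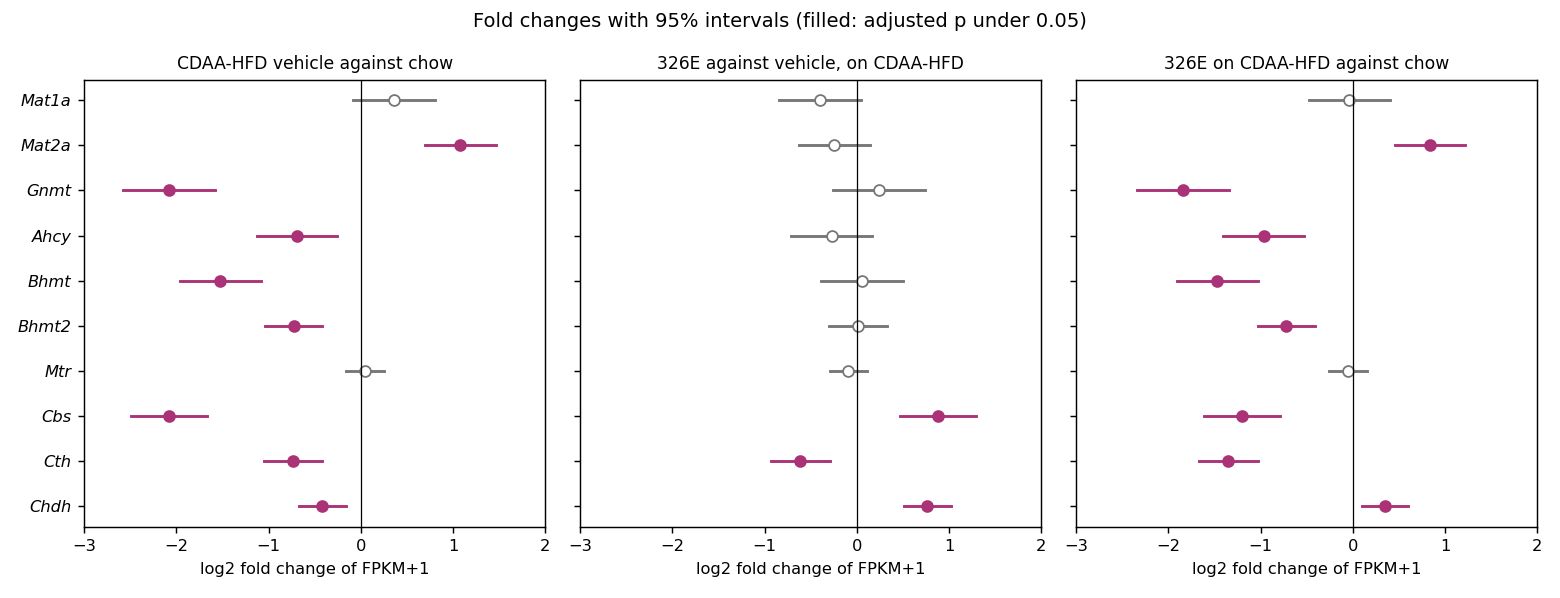
Log2 fold change of FPKM+1 for each gene (points) with its 95% interval (lines) in the 3 comparisons; filled purple points passed at an adjusted p under 0.05. In all, 6 genes lie below 0 in both comparisons with chow and pass in both, while in 326E against vehicle Cbs and Chdh lie above 0 and Cth below; Ahcy, Cth and Chdh lost their diet call with quantile normalization, and Ahcy and Chdh when scaled to total assigned reads.

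The order of the 10 genes by mean level changed on the diet. In chow it ran Gnmt (1010 FPKM), Mat1a (840), Ahcy (608), Bhmt (451), Cth (210), Cbs (124), Bhmt2 (69.4), Chdh (35.1), Mat2a (25.7) and Mtr (1.72), and of these neighbours Gnmt overlapped with Mat1a and Mat1a with Ahcy. In vehicle livers Mat1a stood first at 1066 ± 66.2 FPKM (SD, n = 3), clear of Ahcy at 373 ± 38.7 FPKM, and Mat2a at 55.3 ± 9.60 FPKM had passed Cbs at 29.1 ± 7.24 FPKM. Overlapping neighbours there were Bhmt with Cth, Mat2a with Bhmt2, and Cbs with Chdh. In 326E livers Mat1a was again first at 818 ± 162 FPKM. Cbs (53.7 ± 7.07 FPKM) overlapped with Mat2a (46.2 ± 2.99), Mat2a with Chdh (44.9 ± 2.73), Chdh with Bhmt2 (41.8 ± 6.39), and Ahcy with Gnmt.

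Ratios between enzymes within a library are not changed by a single scaling factor per library, such as assigned reads. Quantile normalization, which reshapes each library, can change them. With it Mat1a and Mat2a rose by 1.36 and 1.28 in vehicle against chow, so the fall of their ratio on the diet given next was absent. Mat1a exceeded Mat2a by 25.7, 50.1 and 27.0 times in chow, 18.7, 23.0 and 17.1 times in vehicle and 15.1, 17.7 and 20.1 times in 326E livers. All CDAA-HFD libraries lay below all chow libraries, of which chow replicate 2 was far above the other pair. The log2 ratio was 0.75 lower in vehicle than in chow (4.28 against 5.03), a difference of -0.44 without chow replicate 2, and 0.15 lower in 326E than in vehicle livers with overlapping groups. Bhmt exceeded Mtr, the other route back to methionine, by 220, 308 and 263 times in chow, 99.9, 65.4 and 98.7 times in vehicle and 128, 72.0 and 107 times in 326E livers. That is a log2 ratio of 8.03 in chow, 6.43 in vehicle and 6.63 in 326E livers, with the CDAA-HFD groups overlapping. Bhmt to Bhmt2 gave a log2 ratio of 2.70 in chow, 1.91 in vehicle and 1.96 in 326E livers. Cbs to Mtr was 64.6 to 85.2 in chow, 11.0 to 19.4 in vehicle and 25.9 to 41.4 in 326E libraries, with no overlap between groups. For these 4 ratios in 3 comparisons, 12 two-sided exact permutation tests were made, and 3 libraries against 3 cannot give a p below 0.1. All 4 ratios reached that smallest p of 0.1 (adjusted p = 0.133) in both comparisons with chow, as did Cbs to Mtr for 326E against vehicle. For the other 3 ratios, 326E against vehicle gave exact permutation p-values of 0.5 (Mat1a to Mat2a), 0.8 (Bhmt to Bhmt2) and 0.5 (Bhmt to Mtr).

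**Figure D3:**
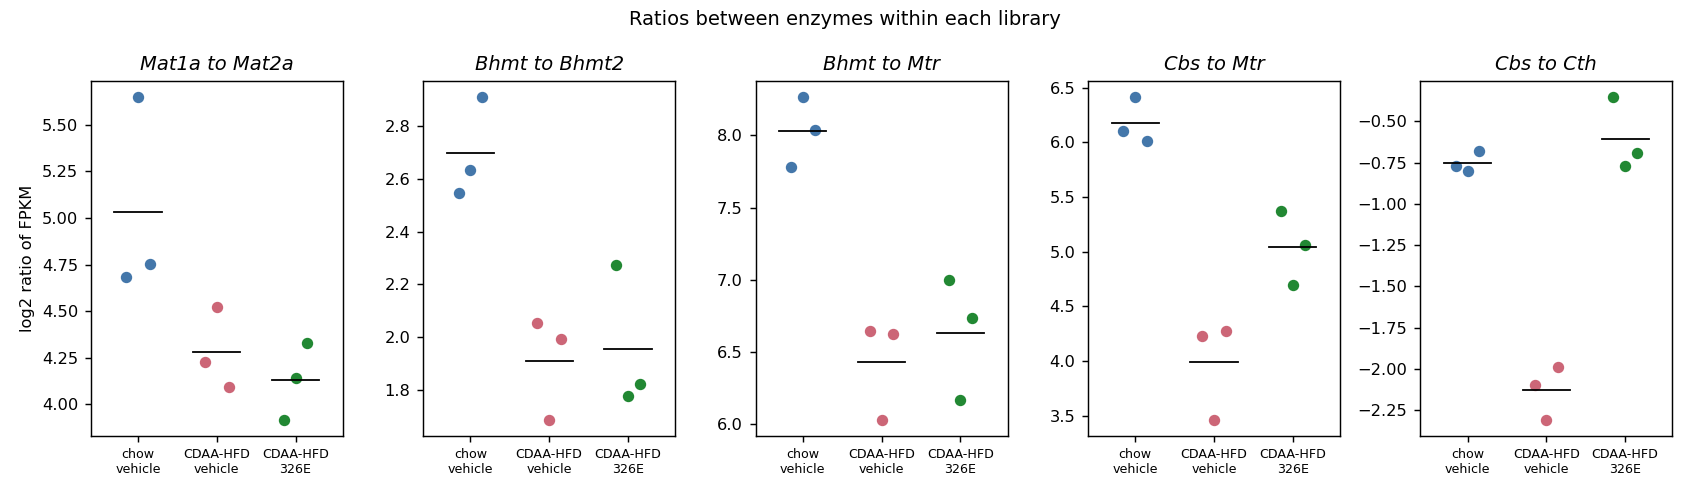
Log2 ratio of FPKM between pairs of enzymes in each library (points, replicates 1 to 3 from left to right) with the group mean (line); vertical scales differ between panels and do not start at 0. The first 4 pairs are lower in every CDAA-HFD library than in chow, and Cbs to Cth, a pair chosen after the values were seen, is low in the vehicle libraries.

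Genes around the cycle were described from 7 lists with 48 members, all of them tested. On the diet 21 fell, 6 rose and 21 did not pass, with a median of -0.34, where 20.8% of all tested genes were lower and 20.8% higher. With 326E 4 rose, 1 fell and 43 did not pass, with a median of 0.004, and 5 of 48 called is close to the 11.5% of all tested genes. The same shares of all tested genes apply to each list that follows. Of the 6 genes that carry choline carbon from betaine aldehyde and its products to glycine or move choline and betaine across membranes, 5 fell on the diet and 1 did not pass, and with 326E 0 of 6 were called by limma, by voom or at an unadjusted p under 0.05. Pipox, a peroxisomal oxidase of sarcosine and pipecolate, fell from 93.8 ± 10.8 to 28.5 ± 8.26 FPKM (-1.72 ± 0.19, adjusted p = 0.00015) and was at 21.5 ± 1.38 FPKM with 326E. Aldh7a1, which oxidises betaine aldehyde, fell by 1.12 ± 0.15 (adjusted p = 0.000499). Sardh, the mitochondrial sarcosine dehydrogenase, was -1.19 ± 0.21 from chow with 326E (adjusted p = 0.00345). The median of this list, the transporters Slc25a48 and Slc6a12 included, was -0.95 for vehicle against chow and -0.02 for 326E against vehicle.

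Among 10 methyltransferases that spend S-adenosylmethionine, 4 fell on the diet, 0 rose and 6 did not pass, with a median of -0.38, and 4 of 10 called is close to the 41.6% of all tested genes called in either direction. Inmt, an indolethylamine methyltransferase, fell by 1.54 ± 0.39 (adjusted p = 0.012). Gamt, which makes creatine, was -1.38 ± 0.25 from chow with 326E (adjusted p = 0.0039). Nnmt, which spends methyl groups on nicotinamide, was the gene of this list called for 326E against vehicle: it read 76.9, 154 and 123 FPKM in chow, 77.8, 69.7 and 102 FPKM in vehicle and 27.0, 15.2 and 42.0 FPKM in 326E livers. All 326E libraries were below all others, and the fall was 1.62 ± 0.36 (adjusted p = 0.0225). The call was lost with no filter (adjusted p = 0.0597), without vehicle replicate 1 or 3 (-1.66 and -1.47, adjusted p = 0.052 and 0.0723) or 326E replicate 1 or 2 (-1.65 and -1.26, adjusted p = 0.0571 and 0.0628), and with vehicle replicates 1 and 3 left out (-1.39, adjusted p = 0.234). In the list of S-adenosylhomocysteine and adenosine disposal, Adk, the adenosine kinase, was the 1 of 4 genes that fell on the diet (-0.72 ± 0.15, adjusted p = 0.00411), a call that just missed the threshold under scaling by assigned reads (-0.32, adjusted p = 0.05). Adk and Ahcyl1, a relative of Ahcy, were at -0.78 ± 0.15 and -0.40 ± 0.09 against chow with 326E (adjusted p = 0.00492 and 0.011), and Ahcyl1 lost its call under scaling by assigned reads (-0.06, adjusted p = 0.663) and under quantile normalization (-0.25, adjusted p = 0.0668).

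Of 6 genes of cobalamin and folate metabolism, 1 rose and 2 fell on the diet (41.6% of all tested genes called), and 2 rose with 326E (11.5% called). Mmab, which makes the adenosyl form of cobalamin and not the methyl form that Mtr uses, was at 5.91, 6.27 and 6.75 FPKM in chow, 3.33, 3.06 and 3.62 FPKM in vehicle and 8.10, 6.11 and 6.63 FPKM in 326E livers. The vehicle libraries were thus below the rest, and Mmab fell by 0.75 ± 0.11 on the diet (adjusted p = 0.000718) and rose by 0.87 ± 0.11 with 326E (adjusted p = 0.00287), a call that held in all 19 alternatives. Mmadhc, a cobalamin trafficking protein, rose by 0.43 ± 0.10 with 326E (adjusted p = 0.0324). That call was lost in 10 of the 19 alternatives, among them each fit without a vehicle or a 326E library (adjusted p = 0.052 to 0.1).

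Beyond Cth, 7 of 10 genes of cysteine and sulfide use fell on the diet, 0 rose and 3 did not pass, beside 20.8% of all tested genes lower, and 2 rose with 326E, beside 4.96% higher. Csad, an enzyme on the path from cysteine to taurine, was at 51.2, 18.0 and 49.5 FPKM in chow, 19.5, 8.36 and 9.39 FPKM in vehicle and 63.8, 52.2 and 72.2 FPKM in 326E livers. Chow replicate 2 lay within the vehicle range, and every 326E library was above every other library. Csad fell by 1.55 ± 0.41 on the diet (adjusted p = 0.0154), a call lost on leaving out chow replicate 1 (-1.30, adjusted p = 0.0546), or chow replicate 3 (-1.32, adjusted p = 0.0538), or else vehicle replicate 2 (-1.34, adjusted p = 0.0519). It rose by 2.33 ± 0.41 with 326E, 5.05-fold by the ratio of means (adjusted p = 0.0101), with 2.76 (adjusted p = 0.0501) when vehicle replicates 1 and 3 were left out. Suox, the sulfite oxidase, read 43.7, 44.4 and 50.8 FPKM in chow, 21.7, 18.5 and 21.2 FPKM in vehicle and 44.2, 48.0 and 56.0 FPKM in 326E livers. It rose by 1.23 ± 0.12 with 326E (adjusted p = 0.00114), a call kept in all 19 alternatives, and stood 0.09 ± 0.12 from chow (adjusted p = 0.618). Ethe1, which oxidises sulfide sulfur, fell by 1.35 ± 0.14 on the diet (adjusted p = 0.000124). Cdo1, the cysteine dioxygenase upstream of Csad, and Sqor, the sulfide oxidase, were at -1.05 ± 0.26 and -0.97 ± 0.19 against chow with 326E (adjusted p = 0.0162 and 0.00617), Cdo1 losing its call without 326E replicate 2 (-0.88, adjusted p = 0.0631), with quantile normalization (-0.42, adjusted p = 0.166) and under scaling by assigned reads (-0.68, adjusted p = 0.0545).

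Polyamine synthesis and methionine salvage spend and recover the carbon of S-adenosylmethionine. Of 10 genes in this list 5 rose on the diet, 1 fell and 4 did not pass, with a median of 0.24, beside 20.8% of all tested genes higher. Sat1, which acetylates polyamines, rose from 24.1 ± 3.50 to 76.2 ± 32.4 FPKM (1.53 ± 0.29, adjusted p = 0.00302). Odc1, which makes putrescine, rose from 22.4 ± 6.58 to 57.4 ± 30.2 FPKM (1.24 ± 0.32, adjusted p = 0.0132), and with vehicle replicates 1 and 3 left out the value was 0.67 (adjusted p = 0.113). Vehicle replicate 2 was the lowest of its group for both genes, at 40.2 FPKM for Sat1 and 35.2 FPKM for Odc1. With 326E 0 of the 10 were called by limma, 4 had an unadjusted p under 0.05 (Enoph1, Mri1, Sat1 and Srm), and voom on the whole reads called Sat1. Against chow, Sms and Mri1 were 0.36 ± 0.11 and 0.29 ± 0.09 higher with 326E (adjusted p = 0.0426 and 0.0342). Both calls were close to the threshold and were lost in 13 (Sms) and 10 (Mri1) of the 19 alternatives. For Sms these included the fits without chow replicate 2 or 3 (adjusted p = 0.117 and 0.124), vehicle replicate 1 or 2 (adjusted p = 0.053 and 0.0502) and 326E replicates 1, 2 and 3 (adjusted p = 0.1, 0.0831 and 0.1). For Mri1 they included those without chow replicates 1, 2 and 3 (adjusted p = 0.0767, 0.0908 and 0.07) and 326E replicates 1, 2 and 3 (adjusted p = 0.0616, 0.0629 and 0.0997).

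**Figure D4:**
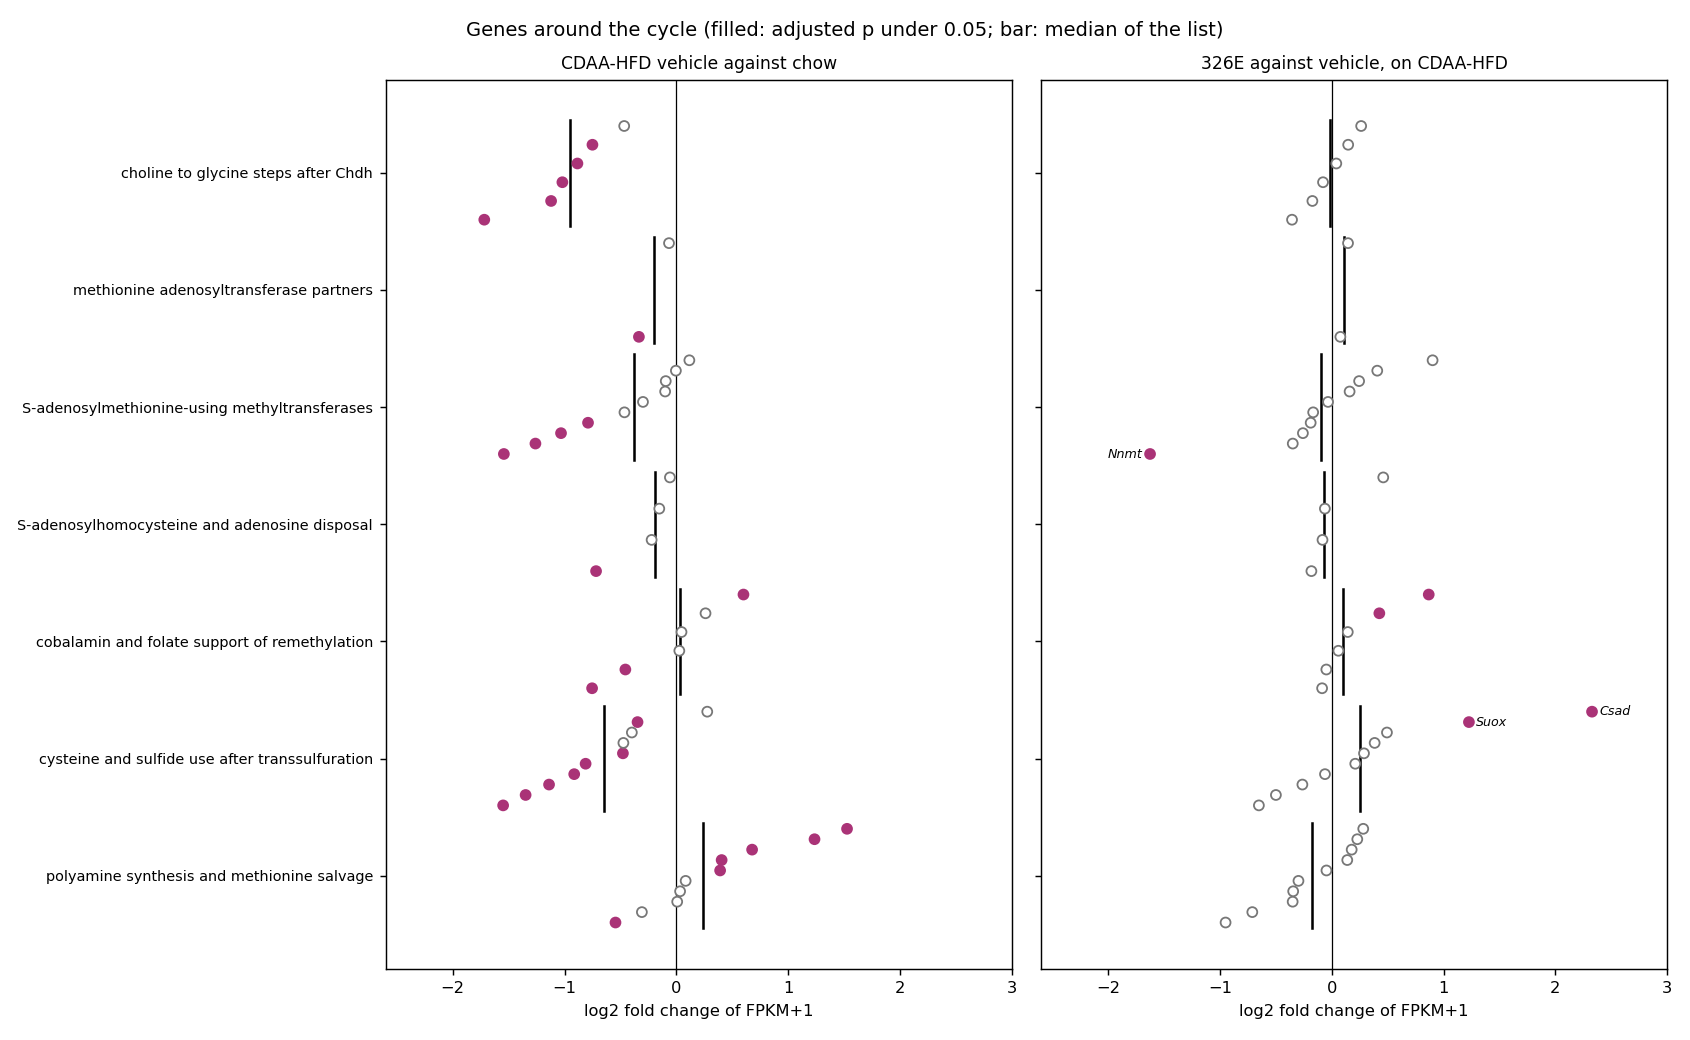
Log2 fold change of FPKM+1 for each gene of 7 lists around the methionine cycle (points; filled purple at an adjusted p under 0.05, names on the right for called genes changed more than 2-fold) with the median of each list (bar), for the diet (left) and for 326E (right). On the left most filled points lie below 0 except in the polyamine list, and on the right 5 points are filled, with Csad and Suox far above 0 and Nnmt far below.

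By the root mean square difference over 9 libraries between log2 profiles, each centred on its own mean, the genes most like Gnmt were Serpina1d (0.151), Scnn1a (0.193), Aldh1l1 (0.199), Haao (0.199) and Gnat1 (0.216). Aldh1l1, a folate dehydrogenase, had means of 231, 71.5 and 66.0 FPKM in chow, vehicle and 326E livers. Those most like Cbs were 1810008I18Rik (0.182), Gnat1 (0.188), Haao (0.189), Car14 (0.202) and Tlcd2 (0.209). Haao, an enzyme of tryptophan breakdown, appears in both lists with means of 295, 71.3 and 107 FPKM.

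Of 8 hepatocyte markers 4 fell on the diet, 0 rose and 4 did not pass, with a median of -0.74, beside 20.8% of all tested genes lower. Among those that did not pass, Tat averaged 477 FPKM in chow against 704 FPKM in vehicle livers. The summed level of the 8 markers was 38551 to 45370 FPKM in chow, 25788 to 39886 FPKM in vehicle, with overlap, and 23652 to 32951 FPKM in 326E libraries. Of 5 periportal markers 3 fell, with sums of 2401 to 2951, 1390 to 1729 and 1003 to 1352 FPKM. Of 5 pericentral markers 1 fell, close to the 20.8% of all tested genes lower, and 2 lay higher without passing. Their sums were 5657 to 6382, 3984 to 5131 and 3735 to 6018 FPKM. With 326E against vehicle, 0 of the 8 hepatocyte markers were called by limma, by voom or at an unadjusted p under 0.05. Of the 5 periportal markers 0 were called by limma, 3 had an unadjusted p under 0.05 and voom called 2. Oat was the 1 of 5 pericentral markers called, lower, beside 6.5% of all tested genes lower. Stellate cell and myofibroblast markers rose in 5 of 7 on the diet, beside 20.8% of all tested genes higher. With 326E against vehicle they fell in 3 of 7, beside 6.5% of all tested genes lower. Their sums were 43.6 to 57.8 FPKM in chow, 187 to 256 FPKM in vehicle and 130 to 153 FPKM in 326E libraries. Cholangiocyte markers rose in 3 of 4 tested on the diet, beside 20.8% of all tested genes higher. With 326E against vehicle 0 of the 4 were called by limma or voom, beside 11.5% of all tested genes called in either direction. All 4 lay lower, with a median of -0.90 against -0.02 for all tested genes, and 2 (Sox9 and Spp1) had an unadjusted p under 0.05. The part of all these cell types in the results above was not tested. Without chow replicate 3, the library with most pancreatic transcripts, 7 of the 10 genes were called on the diet. The count was also 7 without chow replicate 1 or 2, and 6 without vehicle replicate 2. Calls among all tested genes on the diet fell too, from 5721 to between 4662 and 5667 with each library left out. For 326E against vehicle, Chdh was the 1 gene of the 10 called without 326E replicate 1, and likewise without 326E replicate 3. Calls among all tested genes fell in these fits as well, from 1574 to 959 without 326E replicate 1 and to 712 without 326E replicate 3. The smaller counts of the 10 genes thus went with fewer calls among all genes.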

How the data were processed

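Liver poly(A) RNA of 9 libraries was analysed. The submitters' processing notes name HISAT2, featureCounts and mm10; versions, annotation and strand setting are not given in the sources used here. The values deposited by the authors are FPKM. Multiplied by the deposited gene length they gave whole reads in 100% of values (within 0.01), and the library sizes behind them equal median-of-ratios sizes, 0.828 to 1.19 of assigned reads. For a 2 kb gene, 1 read corresponds to 0.0246 to 0.0455 FPKM.

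Genes reaching 0.5 FPKM in 3 or more libraries entered a limma 3.58.1 fit (R 4.3.3) of log2(FPKM+1), with a variance trend over all 9 libraries, Benjamini-Hochberg adjusted over 13737 genes; the method was tested on simulated data. Exon overlaps and shared 50-base stretches were read from the GENCODE vM21 annotation and transcripts, and promoter windows from RefSeq. Tables used Python 3.11.15 and pandas 2.3.3. The genes and lists were chosen with earlier results of these data known. Named list genes are the 2 called genes with the largest change per list and comparison, of which some are not reported here; others were chosen after their values were seen (Mat2b as the single call of its list, Dmgdh for its position). Alternatives changed the pseudocount (0.1 or 5), the filter (none, or a mean of at least 1 FPKM) and the scaling or model: quantile normalization, scaling to total assigned reads, voom on whole reads, only the libraries compared, a replicate block, each library left out in turn, and vehicle replicates 1 and 3 left out together.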

Additional observations from a re-analysis of the deposited data

How the results depend on the processing

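Of 570 values of the 10 genes under the 19 alternatives, 519 kept their direction and side of the threshold. A further 32 lost and 4 gained a call. Another 15 values not called as reported changed sign, 1 of which (Mat1a, 326E against chow, quantile normalization) then passed. Several alternatives cannot turn a sign, because they leave the fold change as it was and alter only its adjusted p. These are the filters, the fit of only the libraries compared, the replicate block and leaving out a library of the third group. Genes called for 326E against vehicle, 1574 in all, became 1030 with no filter, 1037 with the replicate block, 321 with vehicle replicates 1 and 3 left out (which assumes that the remaining library varies as the other groups do) and 647 to 1635 with each library left out; of the 10 genes, 1 to 3 were then called. Vehicle against chow gave 3456 against 5721 with those vehicle replicates left out, and 326E against chow 2393 to 3711 against 3688 with each library left out. Scaling to total assigned reads moved the median of all tested genes from -0.04 to 0.25 in vehicle against chow and from -0.02 to 0.24 in 326E against chow, and the share of calls that were higher from 49.97% to 84.1% and from 53.5% to 86.9%. Under this scaling 5 of the 10 genes were called lower and 3 higher in vehicle against chow, with Mat1a and Mtr among those higher. Ahcy (-0.29, adjusted p = 0.175) and Chdh (-0.03, adjusted p = 0.838) lost their diet calls. The cause of the changes with scaling was not tested.

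Signs turned for Mtr with quantile normalization (-0.12, vehicle against chow) and scaled to total assigned reads (0.18, 326E against chow), for Mat2b scaled to total assigned reads (0.025, vehicle against chow), and for Mat1a in 326E against chow with quantile normalization (0.63, adjusted p = 0.012), scaled to total assigned reads (0.33) and in 2 of 9 fits with a library left out (-0.19 to 0.11). In 326E against vehicle they turned for Bhmt with quantile normalization (-0.020), for Bhmt2 with quantile normalization (-0.027) and scaled to total assigned reads (-0.022), and for Mat2a with vehicle replicates 1 and 3 left out (0.059). With each library left out, Bhmt ranged from -0.092 to 0.21, Bhmt2 from -0.11 to 0.079 and the log2 ratio of Bhmt to Bhmt2 from -0.11 to 0.14. A fit without a library of the third group cannot change a fold change, so fewer than all 9 fits could turn a sign.

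The replicate numbers are not known to pair the libraries: deviations of same-numbered libraries from their group means correlated at -0.244 to 0.0236 in 9 pairs, 0 of them above 0.1. With the replicate block, Cth for 326E against vehicle (adjusted p = 0.0627) and Chdh for 326E against chow (adjusted p = 0.071) lost their calls and no other call of the 10 genes changed. Mtr had the fewest reads of the 10 genes (172 to 334 per library), which limits its precision. Its standard error of 0.09 was the smallest of the 10, but the log2(FPKM+1) scale understates the spread of a low gene as it does its changes.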

Other observations

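The ratio of Cbs to Cth, the successive enzymes of transsulfuration, was examined after the values were seen and was not tested. It was 0.586, 0.574 and 0.624 in the chow libraries, 0.233, 0.202 and 0.252 in the vehicle libraries and 0.783, 0.588 and 0.618 in the 326E libraries. The vehicle libraries were thus apart from both other groups, whose ranges overlapped, although Cbs and Cth themselves were each lower with 326E than in chow.

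The near-copies that share sequence with Ahcy and Bhmt were also listed with values, in which reads of the copy and of the parent gene cannot be told apart. Gm4737 and Gm9826, copies of Ahcy, had means of 124 and 64.8 FPKM in chow, 71.5 and 38.2 FPKM in vehicle and 61.7 and 36.6 FPKM in 326E livers. Gm5096, a copy of Bhmt, had means of 146 FPKM in chow, 45.6 FPKM in vehicle and 51.2 FPKM in 326E livers, and the pseudogene Bhmt-ps1 5.90, 1.70 and 2.10 FPKM.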
